A study of Homo sapiens with 8 samples.

Results

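A375 melanoma cells transfected with an siRNA against BRAF and kept in normal medium (siBRAF cells) were set directly against A375 cells transfected with a nontargeting siRNA (siCont) and deprived of glutamine for 18 h (glutamine-starved cells). A375 is a human melanoma line that carries an activating BRAF mutation. The comparison used 2 of the 8 arrays of the series, chosen by their treatment labels, and 13492 genes. Cells of both groups were grown in RPMI1640 with 10% serum, and the time between transfection and harvest is not given in the sources used here. The siRNA and the medium differ together between these 2 arrays, so their parts in a difference cannot be told apart from this pair alone. The siCont array in normal medium serves as the starting point of both. Of the other arrays, the siBRAF cells in glutamine-free medium and the siCont and siATF4 cells, in normal medium or in DMSO or vemurafenib (10 uM, 4 h, a BRAF inhibitor), were used only where named.

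Mutant BRAF signals through the kinases MEK and ERK, and in melanoma this drives transcription factors of the FOS, EGR and ETV families, MYC, cyclin D1 and the phosphatases that dampen ERK. Cyclin D1 and its kinases release E2F, which switches on the genes of DNA replication, and the genes of mitosis follow. Glutamine is the nitrogen donor for nucleotides and asparagine. When amino acids run short, the kinase GCN2 slows translation in general while translation of ATF4 goes up, and ATF4 then induces amino acid transporters, synthetic enzymes and tRNA synthetases.

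Every condition has 1 array, so no difference below has a replicate check and none has a p-value. The values are array intensities, a difference is log2(intensity + 1) in siBRAF cells minus log2(intensity + 1) in glutamine-starved cells, and a gene was compared if the higher of its 2 intensities reached the array median. Genes at least 2-fold apart were counted. The 2 arrays had like medians (15.5 in siBRAF cells and 14.76 in glutamine-starved cells) and like 3' to 5' log2 differences of actin (0.18 and 0.28, in the same order) and GAPDH (0.13 on both). The melanocyte markers SOX10 and MITF were well above the array median in both, with SOX10 at 1027 in siBRAF cells and 1117 in glutamine-starved cells, while of the pigment genes PMEL was barely above it (15.8 in siBRAF cells and 15.3 in glutamine-starved cells) and MLANA below it (9.15 and 8.79). Of the marker genes of other cell types, 3 of 6 epithelial, 1 of 4 leukocyte, 1 of 5 endothelial and 4 of 6 fibroblast genes reached the median in siBRAF cells, against 2, 1, 1 and 4 in glutamine-starved cells. The level of BRAF was not analysed here, so the siBRAF label was not checked on its target. The array labelled siBRAF in glutamine-free medium stood very close to the siBRAF array in normal medium (SD of the log2 differences 0.194 over 13118 genes, against 0.718 over 13336 genes for the same change of medium in siCont cells), and ASNS, a gene of the glutamine response, read 117 on it, against 2949 on the glutamine-starved siCont array. Some genes did differ on it from the siBRAF array in normal medium, such as IL24 (226 against 87.5, 1.36). The median difference was 0.41 for NRF2 targets (0 of 15 past 2-fold) and -0.39 for interferon-stimulated genes (3 of 27 lower). Whether its label of glutamine-free medium is right, or siBRAF cells changed little with the medium, was not tested. The label is in doubt, and no value of the main pair rests on that array.

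The 2 states were far apart. Of the 13492 genes, 1755 (13.0%) were at least 2-fold higher in siBRAF cells and 1574 (11.7%) at least 2-fold lower, with 494 and 354 at least 4-fold apart in these directions. Within 1.5-fold lay 7484 genes (55.5%), and the median difference was 0.015 (SD over genes 1.05). Both siBRAF cells and glutamine-starved cells can also be set against the same siCont array in normal medium. Genes at least 2-fold higher and lower numbered 962 (7.22%) and 1022 (7.67%) of 13330 in siBRAF cells, and 774 (5.8%) and 969 (7.27%) of 13336 in glutamine-starved cells. These 2 comparisons share the siCont array in normal medium, so their values are given only side by side.

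**Figure D1:**
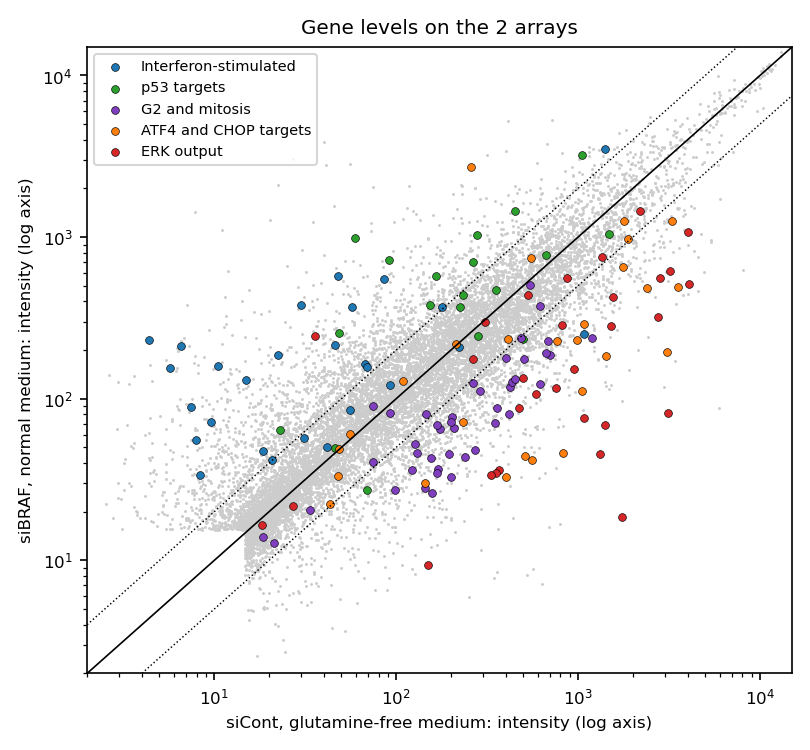
Intensity of each of 13492 genes in siBRAF cells in normal medium (vertical, log axis) and in glutamine-starved siCont cells (horizontal, log axis), with 5 gene lists in colour, the solid line at equality and dotted lines at 2-fold. The genes of ERK output (red), of ATF4 and CHOP (orange) and of mitosis (purple) lie mostly below the lines, and the interferon-stimulated (blue) and p53 (green) genes mostly above.

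Promoter stretches of 8 genes are shown for 4 regulatory elements that are known from genes of the amino acid response, mitosis, replication and interferon response. The elements of the other lists were not searched. Each is 120 bases of RefSeq sequence (GRCh38.p14), read 5' to 3' on the strand of the gene, with the motif in capitals on whichever strand it matched. For the amino acid response element bound by ATF4 (TGATGNAA), ASNS (chr7:97872409-97872528, minus strand, motif 68 bases upstream of the start) and CHAC1 (chr15:40953221-40953340, plus strand, 209 bases upstream) are shown:
ASNS: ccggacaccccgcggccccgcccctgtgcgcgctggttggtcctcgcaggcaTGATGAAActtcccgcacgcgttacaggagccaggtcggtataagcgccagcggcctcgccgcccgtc
CHAC1: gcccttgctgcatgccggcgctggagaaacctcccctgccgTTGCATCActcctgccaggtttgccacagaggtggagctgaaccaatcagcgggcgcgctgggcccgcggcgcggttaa
For the cell cycle homology region of mitotic genes (CHR, TTTGAA), MKI67 (chr10:128126424-128126543, minus strand, 47 and 29 bases upstream) and INCENP (chr11:62123891-62124010, plus strand, 10 bases upstream) are shown, one far apart between the 2 states and one nearly level:
MKI67: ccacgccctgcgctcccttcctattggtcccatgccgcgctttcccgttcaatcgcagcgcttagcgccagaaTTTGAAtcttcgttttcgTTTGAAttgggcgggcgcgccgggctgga
INCENP: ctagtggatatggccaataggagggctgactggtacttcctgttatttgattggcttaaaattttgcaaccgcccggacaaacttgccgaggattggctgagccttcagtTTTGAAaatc
For the E2F site of replication genes (TTTCCCGC), LIG1 (chr19:48170345-48170464, minus strand, 114 bases upstream) and PCNA (chr20:5126623-5126742, minus strand, 59 bases upstream) are shown:
LIG1: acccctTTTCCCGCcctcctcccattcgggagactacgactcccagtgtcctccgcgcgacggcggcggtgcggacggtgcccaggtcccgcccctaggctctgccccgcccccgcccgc
PCNA: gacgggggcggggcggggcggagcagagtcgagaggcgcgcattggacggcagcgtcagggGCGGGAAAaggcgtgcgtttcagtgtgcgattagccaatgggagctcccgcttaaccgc
For the core of the interferon-stimulated response element (the word GAAA written 2 times with any 2 bases between), IFIT1 (chr10:89392503-89392622, plus strand, 116 and 103 bases upstream) and IFI44L (chr1:78620328-78620447, plus strand, 73 bases upstream) are shown:
IFIT1: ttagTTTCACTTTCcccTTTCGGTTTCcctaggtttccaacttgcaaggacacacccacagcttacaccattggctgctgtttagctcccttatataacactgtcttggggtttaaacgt
IFI44L: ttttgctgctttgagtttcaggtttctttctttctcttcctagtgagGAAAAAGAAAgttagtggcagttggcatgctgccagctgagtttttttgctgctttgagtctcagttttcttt
The motifs were searched on both strands from 250 bases before to 50 after the start, in 10882 compared genes that had a RefSeq promoter. A match is a description of letters, not of binding.

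Mitotic genes were on the whole lower in both states than in siCont cells in normal medium, and further down in siBRAF cells. All 43 listed genes of G2 and mitosis were compared, and 34 were at least 2-fold lower in siBRAF cells than in glutamine-starved cells, 0 were higher, and the median difference was -1.64 (background 11.7% lower and 13.0% higher). Against siCont cells in normal medium, 42 of the 43 were at least 2-fold lower in siBRAF cells (median -2.73) and 21 in glutamine-starved cells (median -0.90). The proliferation antigen MKI67 read 28.0 in siBRAF cells, 144 in glutamine-starved cells and 239 in siCont cells in normal medium (difference between the first 2, -2.32, with its 4 compared probe sets between -2.32 and -0.62). Topoisomerase TOP2A, which untangles chromosomes, read 123, 618 and 1017 on the same 3 arrays (-2.32). The checkpoint kinase BUB1 (25.9, 157 and 279, -2.55) and the kinetochore subunit NUF2 (48.1, 271 and 572, -2.47) had the same order of arrays. CKAP2L, a spindle protein, was at 32.9 in siBRAF cells and not low in glutamine-starved cells, with 199 there and 194 in siCont cells in normal medium (-2.56). The exceptions were few. KIF20A, a kinesin of cytokinesis, was about equally low in both states, at 90.3 in siBRAF cells, 74.9 in glutamine-starved cells and 655 in siCont cells in normal medium (0.27). INCENP, a subunit of the Aurora B complex, read 81.6, 92.1 and 187 (-0.17), and the phosphatase CDC25B 505, 545 and 829 (-0.11). With all probe sets of a gene averaged, dim ones included, the differences were smaller for MKI67 (-1.42), TOP2A (-1.48) and BUB1 (-1.15).

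Replication genes were less far apart. Of 45 listed genes of S phase and DNA replication, 43 had a probe set with a single symbol and all 43 were compared: 18 were at least 2-fold lower in siBRAF cells and 0 higher, with a median of -0.76. Against siCont cells in normal medium, 38 were at least 2-fold lower in siBRAF cells (median -1.96) and 20 in glutamine-starved cells (median -0.98). The nuclease EXO1 read 22.1 in siBRAF cells, 125 in glutamine-starved cells and 168 in siCont cells in normal medium (-2.45). The large subunit of ribonucleotide reductase, RRM1, read 253, 1131 and 1391 (-2.15), and the origin recognition subunit ORC6 59.9, 258 and 293 (-2.09). For these genes glutamine-starved cells stood close to siCont cells in normal medium. DNA polymerase delta's catalytic subunit POLD1 (84.6 in siBRAF cells, 84.2 in glutamine-starved cells and 213 in siCont cells in normal medium) and DNA ligase LIG1 (65.6, 63.7 and 167) were instead equally low in both. PCNA, the sliding clamp, was the member that lay highest in siBRAF cells, at 1060 against 568 in glutamine-starved cells and 1895 in siCont cells in normal medium (0.90). The 2 classes of cycle genes also differed in promoter letters: the CHR was found in 25 of 37 mitotic promoters (67.6%) and 1 of 37 replication promoters, and in 9.93% of promoters of all compared genes. Mitotic genes with the CHR had a median difference of -1.64 and those without it -1.15. The E2F site was found in 11 of 37 replication promoters (29.7%) and 1 of 37 mitotic promoters, against 2.5% of all compared genes. Replication genes with the E2F site had a median difference of -0.48 and those without it -1.12. In bulk RNA, fewer cycling cells and less RNA per cell cannot be told apart.

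Upstream of these, cyclin D1 (CCND1) separated the states. It read 287 in siBRAF cells, against 817 in glutamine-starved cells and 835 in siCont cells in normal medium (-1.504). The kinase CDK2 followed the same order at 143, 451 and 488 (-1.66), while CDK4 was nearly level at 1634, 2014 and 1856 (-0.30). MYC was the widest apart of the 18 compared G1 and E2F regulators, at 45.4 in siBRAF cells, 1321 in glutamine-starved cells and 133 in siCont cells in normal medium (-4.83), so that it was low in one state and high in the other. E2F7, a repressor of E2F targets, read 188, 909 and 353 (-2.26). In all, 6 of the 18 were at least 2-fold lower in siBRAF cells and 0 higher, beside 11.7% and 13.0% of all genes.

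**Figure D2:**
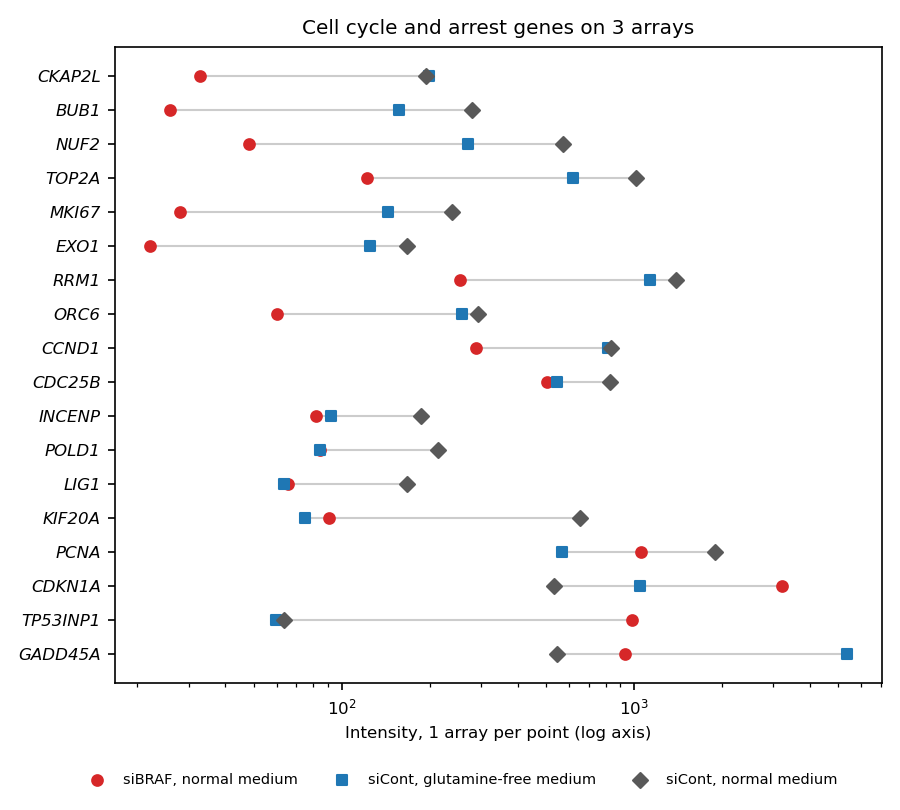
Intensity (log axis) of 18 cell cycle and arrest genes, 1 point per array, in siBRAF cells in normal medium (red circles), glutamine-starved siCont cells (blue squares) and siCont cells in normal medium (grey diamonds). MKI67, TOP2A, BUB1 and NUF2 are lowest in siBRAF cells, INCENP, POLD1, LIG1 and KIF20A lie together in both states, and CDKN1A and GADD45A are highest in different states.

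Genes tied to arrest split between the states. Of 18 compared inhibitors and quiescence genes, 8 were at least 2-fold higher in siBRAF cells and 5 lower (median 0.90), beside 13.0% and 11.7% of all genes. CDKN1A, which encodes the CDK inhibitor p21, was higher in both states than at the start, with 3224 in siBRAF cells, 1050 in glutamine-starved cells and 532 in siCont cells in normal medium (1.62). TXNIP, an inhibitor of thioredoxin and glucose uptake, was high in siBRAF cells only on these 3 arrays, at 2717, 257 and 204 (3.40). GAS1, a growth arrest gene of quiescent fibroblasts, read 92.7 in siBRAF cells, 6.99 in glutamine-starved cells and 39.2 in siCont cells in normal medium (3.55), with the second value below the array median. The DNA damage and stress genes GADD45A and GADD45B ran the other way. GADD45A read 935 in siBRAF cells, 5350 in glutamine-starved cells and 544 in siCont cells in normal medium (-2.52), and GADD45B 126, 662 and 57.5 (-2.38, but -0.69 without probe sets shared between transcripts). GAS1 was at 1.36 with all its probe sets averaged.

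Targets of p53 were mostly higher in siBRAF cells, with 10 of 19 compared at least 2-fold higher and 2 lower (median 1.30). Of all genes, 13.0% were higher and 11.7% lower, so the lower share is near that of all genes. TP53INP1, a proapoptotic and autophagy factor, read 987 in siBRAF cells, against 59.7 in glutamine-starved cells and 63.5 in siCont cells in normal medium (4.03). The RNA-binding ZMAT3 (718, 91.8 and 138, 2.96) and the mTORC1 regulator SESN1 (256, 48.3 and 84.2, 2.38) followed. The 2 lower ones were PLK3 (27.4, 69.3 and 32.3, -1.31) and AEN (234, 497 and 217, -1.085). Of the 2 compared PLK3 probe sets the other was at 0.69. FAS (-0.21) and EDA2R (0.11) were nearly level. MDM2, the ligase that degrades p53, depended on the probe set. Its main one read 773, 667 and 430 (0.21), and its 8 compared probe sets ran between 0.03 and 3.16. Of 21 compared FOXO targets, 9 were at least 2-fold higher and 3 lower (median 0.83), and here too the lower share is near that of all genes. SESN3 led the higher ones at 265 in siBRAF cells, 9.36 in glutamine-starved cells and 9.63 in siCont cells in normal medium, where both last values are below the array median. Averaged over all probe sets, TP53INP1 was at 1.92 and SESN3 at 1.90.

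Many genes of the amino acid response were lower in siBRAF cells than in glutamine-starved cells. Against siCont cells in normal medium, siBRAF cells had 5 of 27 compared ATF4 and CHOP targets at least 2-fold higher and 6 lower, and 8 of 17 genes of amino acid synthesis, 6 of 17 transporters and 2 of 17 tRNA synthetases lower, with 0 higher in these 3 lists. In glutamine-starved cells 17 ATF4 and CHOP targets, 10 genes of amino acid synthesis, 9 transporters and 6 tRNA synthetases were at least 2-fold higher, and 2 transporters lower. Among all genes, 7.22% were higher and 7.67% lower in siBRAF cells, and 5.8% and 7.27% in glutamine-starved cells. The counts of 2 lower tRNA synthetases and 2 lower transporters are therefore near the share of all genes. Of the 27 ATF4 and CHOP targets, 16 were at least 2-fold lower in siBRAF cells than in glutamine-starved cells and 1 higher, TXNIP (median -1.68). Relative to siCont cells in normal medium the median was -0.10 in siBRAF cells and 1.62 in glutamine-starved cells. The ATF4 transcript itself read 1519 in siBRAF cells, 4360 in glutamine-starved cells and 1814 in siCont cells in normal medium (-1.52), and 534 in siATF4 cells in normal medium. Asparagine synthetase, ASNS, which uses glutamine as its nitrogen source, read 118 in siBRAF cells, 2949 in glutamine-starved cells and 288 in siCont cells in normal medium (-4.63). Cystathionine lyase CTH (46.0, 826 and 55.6, -4.14), the mitochondrial folate enzyme ALDH1L2 (15.7, 364 and 41.3, -4.45) and the pseudokinase TRIB3 (194, 3078 and 397, -3.98) had the same highest array. The hormone GDF15 (41.6, 556 and 40.8, -3.71) was about equally low in siBRAF cells and at the start. The transcription factor CHOP is encoded by DDIT3 (184, 1420 and 105, -2.94). DDIT3 was highest in glutamine-starved cells, and higher in siBRAF cells than at the start. SESN2 was higher in both states relative to siCont cells in normal medium, at 227 in siBRAF cells, 764 in glutamine-starved cells and 50.3 at the start (-1.75). Averaged over all probe sets of the gene, dim ones included, ASNS was at -2.26, ALDH1L2 at -2.67 and GDF15 at -1.54.

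Enzymes, transporters and tRNA synthetases showed the same direction without exception past 2-fold. Of 17 compared genes of amino acid and one-carbon synthesis, 12 were lower in siBRAF cells and 0 higher (median -2.14), and of 17 transporters 9 and 0 (median -1.03). The cystine carrier SLC7A11 read 85.3 in siBRAF cells, against 1062 in glutamine-starved cells and 262 in siCont cells in normal medium (-3.62). The glutamine carrier SLC38A1 read 120, 1423 and 505 (-3.56), though 1 of its 4 compared probe sets was at 0.13 and their mean over all probe sets at -2.24, and the arginine and lysine carrier SLC7A1 read 200, 2142 and 919 (-3.42). These carriers were below the siCont array in normal medium in siBRAF cells and above it in glutamine-starved cells. Of 17 cytosolic tRNA synthetases 12 were lower and 0 higher (median -1.47), with WARS1 at 369, 2097 and 568 (-2.50) and GARS1 at 862, 3609 and 1383 (-2.06). The letters TGATGNAA were found in 3 of 13 promoters of synthetic enzymes (23.1%), 4 of 14 of transporters (28.6%), 5 of 14 of tRNA synthetases (35.7%) and 4 of 24 of ATF4 and CHOP targets (16.7%), against 1.96% of all compared genes. Genes with these letters had median differences of -2.89, -2.67, -1.69 and -1.40 in this order of lists. Those without them were at -1.62, -0.97, -1.23 and -1.35, so the ATF4 and CHOP targets with and without them were nearly level.

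**Figure D3:**
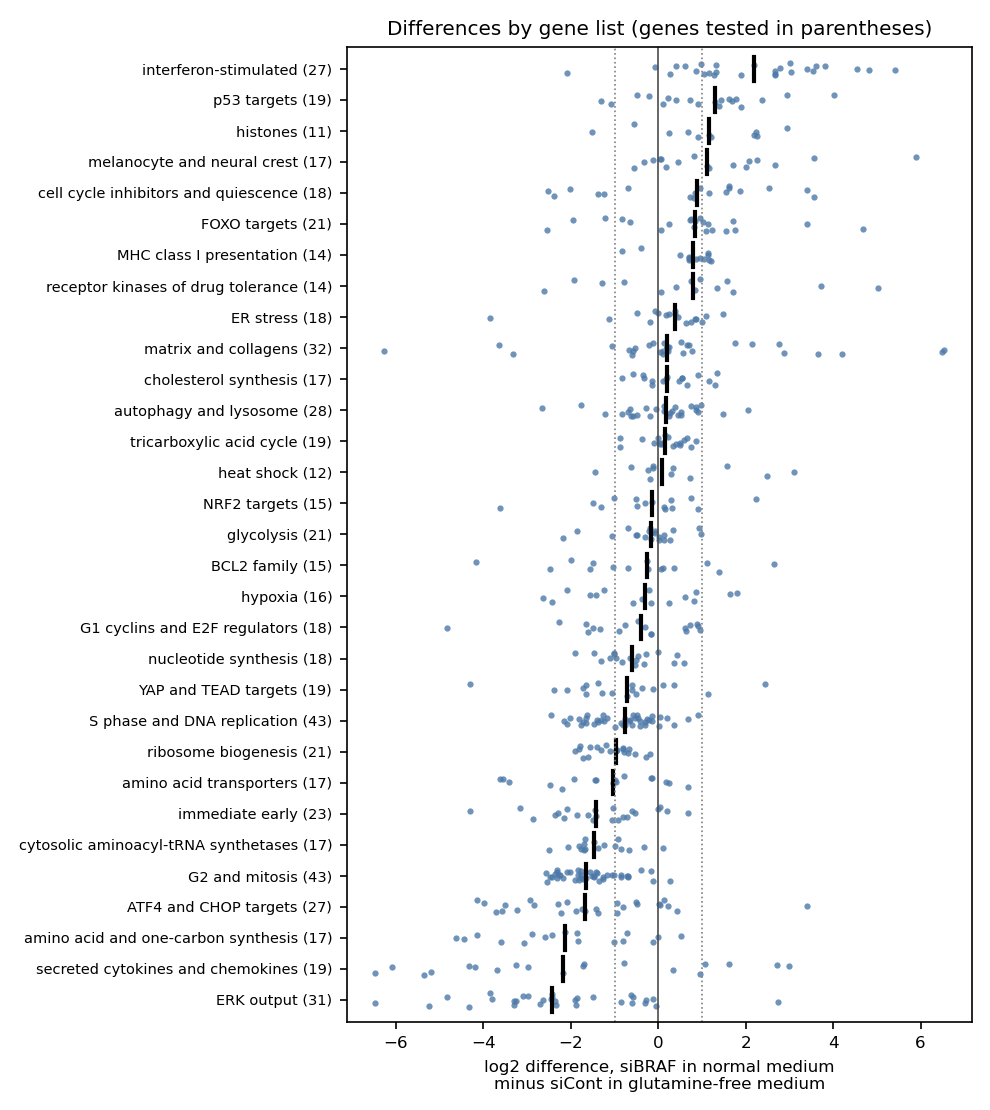
log2 difference, siBRAF in normal medium minus siCont in glutamine-free medium, for each compared gene of 31 lists (dots) with the list median (bar), ordered by median; dotted lines mark 2-fold. Medians run between 2.20 for interferon-stimulated genes and -2.42 for ERK output, and the tricarboxylic acid cycle genes stay within 2-fold.

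ERK output had the most negative median of the 31 lists, and its genes lay mostly below the starting level in siBRAF cells and many lay above it in glutamine-starved cells. Of 31 compared genes, 22 were at least 2-fold lower in siBRAF cells and 1 higher (median -2.42), beside 11.7% and 13.0% of all genes. Against siCont cells in normal medium the median was -1.52 in siBRAF cells and 0.70 in glutamine-starved cells. Past 2-fold, 24 of the 31 were lower and 0 higher in siBRAF cells, and 13 were higher and 3 lower in glutamine-starved cells. Of all genes, 7.67% were lower in siBRAF cells, and 5.8% were higher and 7.27% lower in glutamine-starved cells. The ERK phosphatase DUSP6 read 320 in siBRAF cells, 2740 in glutamine-starved cells and 1411 in siCont cells in normal medium (-3.09). The small MAF protein MAFF read 81.9, 3141 and 476 (-5.24). The member that was higher in siBRAF cells was the pseudokinase TRIB2, at 244, against 35.7 in glutamine-starved cells and 506 in siCont cells in normal medium (2.74). Among 23 compared immediate early genes, 14 were lower in siBRAF cells and 0 higher (median -1.43), and here siBRAF cells stood near the start. Over the 20 at or above the array median on both arrays, 12 were lower and 0 higher (median -1.25). EGR1 read 170 in siBRAF cells, 3403 in glutamine-starved cells and 95.6 in siCont cells in normal medium (-4.31). FOS read 23.7, 179 and 23.4 (-2.86) and EGR3 59.3, 541 and 118 (-3.17).

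Secreted inflammatory factors were among the most distant genes. Of 19 compared cytokines and chemokines, 12 were lower in siBRAF cells and 4 higher (median -2.18), beside 11.7% and 13.0% of all genes. Interleukin IL11 read 18.7 in siBRAF cells, 1748 in glutamine-starved cells and 251 in siCont cells in normal medium (-6.47). IL24 read 87.5, 5990 and 157 (-6.08) and IL6 15.98, 692 and 32.3 (-5.35), both high in glutamine-starved cells alone on these arrays. IL11 and IL6 in siBRAF cells, and CXCL10 in glutamine-starved cells, were near the array median, so the size of these differences depends on background. LIF read 69.1, 1408 and 200 (-4.33). The immune checkpoint ligand CD274 read 8.17 in siBRAF cells, below the array median, against 522 in glutamine-starved cells and 17.3 in siCont cells in normal medium. The ecto-nucleotidase NT5E, which makes adenosine, read 37.5, 757 and 412 (-4.30).

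Interferon-stimulated genes were mostly higher in siBRAF cells. Of 30 listed, 27 were compared, and 20 were at least 2-fold higher in siBRAF cells and 1 lower (median 2.20). Of the 27, 8 were below the array median in glutamine-starved cells and entered through their level in siBRAF cells. Over the other 19 genes, 12 were higher and 1 lower, and the median was 1.27. IFITM1, which keeps viruses from entering, was above the array median on both arrays, at 379 in siBRAF cells, 29.96 in glutamine-starved cells and 46.0 in siCont cells in normal medium (3.62). Against siCont cells in normal medium the median of these 27 was 1.30 in siBRAF cells and -0.67 in glutamine-starved cells. IFIT1, which binds foreign RNA, read 212 in siBRAF cells, 6.58 in glutamine-starved cells and 45.3 in siCont cells in normal medium (4.82). IFI44L read 155, 5.70 and 11.5 (4.54), and the antiviral factor TRIM22 229, 4.39 and 6.04 (5.42). All 3 were below the array median in glutamine-starved cells, so the size of these differences depends on background. On the array labelled siBRAF in glutamine-free medium these 3 genes read 155, 76.3 and 200. ISG20, an exonuclease, went the other way at 253 in siBRAF cells, 1076 in glutamine-starved cells and 780 in siCont cells in normal medium (-2.08). This interferon element core was found in 15 of 20 interferon list promoters and in 2.77% of those of all compared genes. List genes with it had a median difference of 2.66 and the 5 without it 2.20. In MHC class I presentation, 5 of 14 compared genes were higher and 0 lower (median 0.79), with HLA-B at 3624 in siBRAF cells, 1630 in glutamine-starved cells and 1568 in siCont cells in normal medium (1.15). HLA probe sets can take up RNA of related HLA genes, so this value is not certain to be HLA-B alone.

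Several neural crest and receptor genes also separated the states. Of 17 compared melanocyte and neural crest genes, 9 were higher in siBRAF cells and 0 lower (median 1.12). SOX2, a stem cell factor, read 1269 in siBRAF cells, 20.3 in glutamine-starved cells and 228 in siCont cells in normal medium (5.90), and FOXD3, a neural crest factor, 490, 28.8 and 52.8 (4.04). The calcium-binding melanoma marker S100B read 1302, 110 and 288 (3.56). Of the 7 compared melanocyte lineage markers it was the only one past 2-fold (median 0.19). Averaged over all probe sets, SOX2 was at 3.06, FOXD3 at 2.26 and S100B at 1.82. Of 14 receptor kinases and related receptors of drug tolerance, 5 were higher and 3 lower, beside 13.0% and 11.7% of all genes. Over the 13 at or above the array median on both arrays, 4 were higher and 3 lower. The nerve growth factor receptor NGFR read 237 in siBRAF cells, 16.9 in glutamine-starved cells and 25.9 in siCont cells in normal medium (3.73), while EGFR read 30.2, 189 and 60.5 (-2.61) and MET 612, 2326 and 1446 (-1.93). Of the 6 EGFR probe sets compared, the nearest to 0 was at -0.14, and EGFR was at -1.11 averaged over all its probe sets.

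Several secreted and matrix proteins were among the genes furthest on the high side of siBRAF cells. Among genes above the array median in both states, the copper hydroxylase MOXD1 led at 3061 in siBRAF cells, 27.2 in glutamine-starved cells and 72.8 in siCont cells in normal medium (6.76). The matricellular protein CCN3 (3890, 40.3 and 110, 6.56) and matrix Gla protein MGP (2095, 22.5 and 90.4, 6.48) followed. Periostin, POSTN, read 1113, 11.1 and 32.0, with its level in glutamine-starved cells below the array median. Averaged over all probe sets, MGP was at 3.61 and POSTN at 3.25. The collagenase MMP1 was the reverse, at 7.19 in siBRAF cells, 636 in glutamine-starved cells and 143 in siCont cells in normal medium. Its level in siBRAF cells was below the array median. As a whole, 8 of 32 compared matrix genes were higher and 4 lower (median 0.20), beside 13.0% and 11.7% of all genes, so the lower share is near that of all genes. Over the 26 at or above the array median on both arrays, 5 were higher and 2 lower (median 0.20), so the other calls depend on background. Among the 6 fibroblast markers the summed intensity was 470.1 in siBRAF cells and 200.2 in glutamine-starved cells. Lumican (LUM), a matrix proteoglycan, made most of the sum in siBRAF cells, at 249 in siBRAF cells, 12.5 in glutamine-starved cells and 51.6 in siCont cells in normal medium. The fibroblast collagen COL1A1 read 123, 107 and 122, and PDGFRA was below the median in both states. The part of such cells in the matrix values was not tested.

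Lists of growth, metabolism and survival ranged widely, beside 13.0% of all genes at least 2-fold higher in siBRAF cells and 11.7% lower. All 21 compared ribosome biogenesis genes had negative differences and 10 were at least 2-fold lower in siBRAF cells (median -0.97). Against siCont cells in normal medium the median was -0.88 in siBRAF cells and 0.08 in glutamine-starved cells. NOP58, of the box C/D snoRNPs, read 453 in siBRAF cells, against 1697 in glutamine-starved cells and 950 in siCont cells in normal medium (-1.90). Of 18 nucleotide synthesis genes, 6 were lower (median -0.59), among them the purine enzyme GART at 189, 715 and 411 (-1.91, but -0.08 in 1 of its 6 compared probe sets and -0.998 averaged over all). None of 19 tricarboxylic acid cycle genes reached 2-fold (median 0.16), and 3 of 21 glycolysis genes were lower, a share near the 11.7% of all genes. Of these, hexokinase HK2 read 154, 561 and 591 (-1.86). Histone genes were higher in siBRAF cells in 6 of 11 compared and lower in 1 (median 1.15), with H2BC5 at 791, 166 and 117 (2.24). Copies of H2B genes are nearly identical, so the probe set may read several of them. In the BCL2 family 3 of 15 were higher and 6 lower: MCL1, which holds apoptosis back, read 957 in siBRAF cells, 5370 in glutamine-starved cells and 2056 in siCont cells in normal medium (-2.49), PMAIP1 (NOXA), which counters MCL1, 96.3, 1749 and 420 (-4.17), and the death activator BMF 125, 19.1 and 30.1 (2.64).

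The array labelled siBRAF in glutamine-free medium was set against the same glutamine-starved siCont array. If its label is right, this compares the siRNAs in one medium, but the label is in doubt. The list medians there were -0.73 for replication, -1.69 for mitosis, -1.79 for ATF4 and CHOP targets, -2.26 for ERK output, -1.21 for immediate early genes, 1.27 for p53 targets and 1.41 for interferon-stimulated genes. For siBRAF cells in normal medium they were -0.76, -1.64, -1.68, -2.42, -1.43, 1.30 and 2.20 in the same order. Both sets of medians rest on the same siCont array. ASNS read 117 on this siBRAF array, EGR1 144, DUSP6 312 and MKI67 36.2.

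Arrays that share nothing with the 2 states gave values for the same genes after 4 h of the BRAF inhibitor. With vemurafenib, 116 of 13181 genes (0.88%) were at least 2-fold higher than in DMSO and 255 (1.93%) lower, in siCont cells. Of the 254 lower genes that were compared in both, 142 (55.9%) were also at least 2-fold lower in siBRAF than in glutamine-starved cells, which is 9.45% of the 1503 genes lower there, and 11.9% of all genes compared in both were lower there. Of 113 genes higher with vemurafenib, 60 (53.1%) were also higher in siBRAF cells (3.88% of the 1547; 12.2% of all genes compared in both were higher) and 23 (20.4%) lower (1.53% of the 1503). Pearson's r across 12653 genes was 0.341, where genes are not independent replicates.

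The ERK list went the same way in both, with 26 of 31 genes lower with vemurafenib (median -2.38). DUSP6 was below the array median in vemurafenib and at 1733 in DMSO (-6.76). MYC read 52.6 in vemurafenib and 471 in DMSO (-3.14), and CCND1 537 and 2440 (-2.18). TXNIP (3.01), SOX2 (2.999) and FOXD3 (2.94) were higher with vemurafenib as in siBRAF cells, but they were picked for going the same way in both. MYC and DUSP6 also met that rule, on the lower side. Of 16 compared melanocyte and neural crest genes, 1 was at least 2-fold higher with vemurafenib and 1 lower (median 0.13). S100B (-0.14), NGFR (-0.21) and CCN3 (-0.09), all high in siBRAF cells, were nearly level with the drug. Of the mitotic and replication genes, 0 of 43 in each list reached 2-fold after 4 h of drug, with medians of 0.13 and -0.06. The ATF4 list went the opposite way to the direct pair, higher with vemurafenib in 10 of 27 genes and 0 lower (median 0.56). The direct pair has glutamine-starved cells as its reference. Against siCont cells in normal medium, siBRAF cells had 5 of the 27 higher and 6 lower (median -0.10). ASNS read 2326 in vemurafenib and 548 in DMSO (2.09), CTH 700 and 81.6 (3.09) and CHAC1 333 and 46.6 (2.81), while CHAC1 read 30.1 in siBRAF cells, 144 in glutamine-starved cells and 26.7 in siCont cells in normal medium (-2.22). DDIT3 (1.75) and SESN2 (1.58) were also higher with the drug and lower in siBRAF than in glutamine-starved cells. Against siCont cells in normal medium, both were higher in siBRAF cells, DDIT3 by less than 2-fold, while ASNS was lower (-1.28). TRIB2, the ERK list gene that was higher in siBRAF than in glutamine-starved cells, was lower with the drug (-2.32). It was also lower in siBRAF cells than in siCont cells in normal medium (-1.05).

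**Figure D4:**
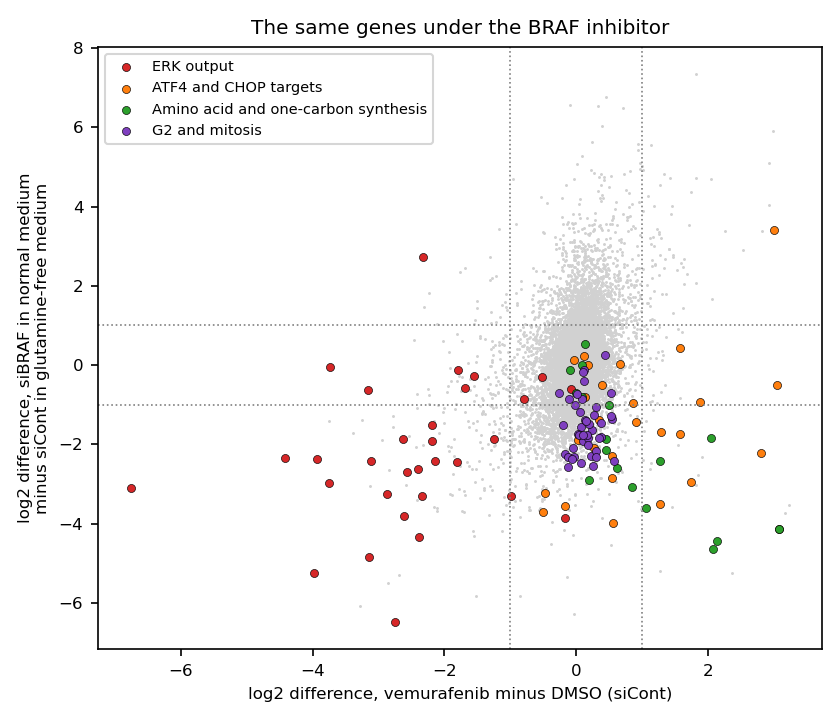
log2 difference, siBRAF in normal medium minus siCont in glutamine-free medium (vertical), against vemurafenib minus DMSO in siCont cells (horizontal), 1 dot per gene, dotted lines at 2-fold. Most ERK output genes (red) lie at the lower left, many ATF4 (orange) and amino acid synthesis genes (green) at the lower right, and mitotic genes (purple) are spread along the vertical axis with the drug difference near 0.

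Silencing ATF4 in vemurafenib gave a further set of genes on other arrays than the 2 states. ATF4 read 757 in siATF4 cells and 4548 in siCont cells, both in vemurafenib (-2.59). There 28 of 13195 genes (0.212%) were at least 2-fold higher with siATF4 and 96 (0.728%) lower. Of the 96 lower genes, 50 (52.1%) were also lower in siBRAF than in glutamine-starved cells, 3.39% of the genes lower there, beside 11.6% of all genes compared in both, and 7 (7.3%) were higher. Of 26 genes higher with siATF4 and compared in both, 18 (69.2%) were also higher in siBRAF cells and 3 (11.5%) lower. Of all genes compared in both, 12.5% were higher there. Among ATF4 and CHOP targets 13 of 27 were lower with siATF4 (median -0.99), and among genes of amino acid synthesis 9 of 17 (median -1.18). ASNS read 256 in siATF4 cells and 2326 in siCont cells (-3.18), ALDH1L2 27.9 and 267 (-3.22), and CTH 190 and 700 (-1.88). GDF15, lower in siBRAF than in glutamine-starved cells, was not lower with siATF4 (97.3 against 70.7 in siCont cells, 0.46). In normal medium, without drug or starvation, siATF4 cells read 138 for ASNS and 6.71 for ALDH1L2, the second value below the array median, against 288 and 41.3 in siCont cells. Of 51 genes lower with siATF4 in normal medium, 18 (35.3%) were lower in siBRAF than in glutamine-starved cells and 18 (35.3%) higher. Of 56 genes higher with siATF4 there, 24 (42.9%) were higher in siBRAF cells and 16 (28.6%) lower. Among all genes of this comparison 11.8% were lower and 12.5% higher. The vemurafenib array of siCont cells serves in both of these drug comparisons, so they are not independent of each other.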

How the data were processed

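RNA of A375 cells was hybridised to 8 Affymetrix arrays, 1 per condition. The authors deposited RMA intensities, which are not on a log scale, per the values and the submitters' processing notes; no version is given in the sources used here. The 5 arrays without DMSO or drug (medians 14.76 to 15.5) and the 3 of DMSO and vemurafenib (36.38 to 36.85) have different scales, so differences were taken within a set only. Of 54675 probe sets, 62 are controls, 41091 carry 1 gene symbol in the platform annotation, 1801 several and 11721 none. Symbols were updated through RefSeq for 41037, which gave 19775 genes. Where a gene had several probe sets, the one brightest on average over all 8 arrays stood for it, as log2(intensity + 1), so folds of dim genes are understated. Genes whose larger value of a pair lay below the array median were left out.

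With 1 array per condition no test and no error can be had, and counts at 2-fold describe arrays. Spread was judged only from other probe sets of the same gene: of 6618 genes with at least 2 compared probe sets, the median gap between them was 0.295 and the 95th percentile 1.515 (log2). The comparison and the 31 gene lists were chosen with earlier results of these data known, and they support nothing as independent evidence. The named genes are a set of 175 given by a rule: the 15 most different each way among genes above the median on both arrays, the 6 each way that depend on background, the 3 highest and 3 lowest past 2-fold of each list, the 3 nearest 0 of the proliferation and arrest lists, 8 genes named whatever their values, and 5 each way that go with vemurafenib. The text above shows a selection from this set and leaves out others, among them GASK1B, the largest difference of all (7.34). Counts of named genes below cover the whole set. PCNA, CHAC1, DDIT3, SESN2, IFITM1, COL1A1 and PDGFRA were named after their values were seen. Alternatives changed the pseudocount, filter, probe set rule and scaling. The counting was tested on simulated data. Work used Python 3.11.15, numpy 2.4.6 and pandas 2.3.3.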

Additional observations from a re-analysis of the deposited data

How the results depend on the processing

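No paired analysis was possible because each condition has 1 array, and for the same reason no array could be left out in turn. Under the 7 other settings of pseudocount, filter, probe set rule and scaling, the genes at least 2-fold higher in siBRAF cells than in glutamine-starved cells numbered 1242 to 1804, and those lower 1203 to 1744. Counting each single-symbol probe set on its own gave 3197 higher and 3045 lower. The median of the S phase list passed 2-fold at -1.09 with a filter at the 75th percentile, and that of the p53 targets fell short of it at 0.91 when all probe sets of a gene were averaged, and the cause was not tested for either. Other list medians that crossed 2-fold were melanocyte and neural crest genes (0.81 with a pseudocount of 16, 0.81 with no filter and 0.84 with probe sets averaged), histones (0.89 with a pseudocount of 16), inhibitors and quiescence (1.06 without shared probe sets), receptors of drug tolerance (1.15 with the 75th percentile filter), the BCL2 family (-1.04 with that filter) and ribosome biogenesis (-1.03 with median centring). A setting chosen after seeing the data kept only genes at or above the array median on both arrays. It moved the interferon median to 1.27, the cytokine median to -1.72 and the immediate early median to -1.25. No list median crossed 2-fold under it. Of the named genes past 2-fold, 1 changed sign: HSPA4 was at -1.45 and became 0.81 without probe sets shared between transcripts, which leaves it to another probe set. Sign changes of genes within 2-fold were not counted, such as that of E2F2 (-0.175, and 0.093 with all probe sets averaged). Averaging all probe sets changed the difference by over 1.5 times for 47 of the 154 named genes that were past 2-fold. Named genes kept their side of 2-fold in 1173 values under these settings, 25 values no longer reached it and 2 newly did.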
